A study of Caenorhabditis elegans with 4 samples.

Results

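Chromosome III of Caenorhabditis elegans carried 230 regions bound by RNA polymerase II at the third larval stage (L3), out of 1922 regions on all chromosomes. The members are all 485 peaks that 3 deposited lists place on III, and peaks of different lists that share at least 1 bp were joined into a region. The combined list was called on the merged reads of both ChIP replicates and gave 213 of these peaks, the replicate 1 list gave 111 and the replicate 2 list 161. Regions were assigned by position alone, and neither width nor strength entered the choice. Chromosomes II, IV, V and X serve as background below, and chromosome I was left out of every comparison.

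RNA polymerase II makes messenger RNA and many small RNAs. Its largest subunit, AMA-1, ends in a tail of repeated heptapeptides that is phosphorylated as transcription proceeds. Polymerase gathers at promoters and, in strongly transcribed genes, also covers the gene body, so a peak can mark a start site, a whole gene or several neighbouring genes. In worms many genes lie in operons, where neighbours are transcribed as a unit. The autosomes of this species are also known for gene-dense, actively transcribed centres and arms that are richer in repeats.

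Chromatin was taken from OP54 hermaphrodites at L3, raised at 20 °C on bacteria and fixed with formaldehyde. All samples, inputs included, carry the mutation unc-119(ed3) on III. They also carry the transgene wgIs54, introduced by bombardment, with a working copy of unc-119 and a copy of the Hox gene egl-5 fused to TY1, EGFP and 3xFLAG tags. The native unc-119 and egl-5 both lie on III in the RefSeq gene table of assembly WBcel235, so reads from the transgene, in ChIP and input alike, would be placed on III; its part in the counts of III was not tested. The place of the 2 genes in the build of the lists, WormBase WS220, was not analysed here, and neither regions nor clusters were assigned to genes. The 4 samples were 2 polymerase immunoprecipitates made with the antibody 8WG16 against the repeated tail, and 2 inputs. Whole animals were used, so strong binding in few cells and weak binding in many cannot be told apart.

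The lists rest on libraries of modest and unequal depth. ChIP replicate 1 had 1959480 uniquely mapped reads, replicate 2 had 2364309, and the merged input that served as control for every list had 1861526. Of all reads, 39.8% mapped uniquely in ChIP replicate 1 and 57.0% in replicate 2. In the inputs only 11.7% (replicate 1) and 7.50% (replicate 2) did. The part of these rates in the q-values was not tested. Each peak comes with the authors' q-value, where a smaller q means a stronger excess of ChIP reads over the control, and strength is given below as −log10 q. The smallest q of any list was 1.81e-304, and 0 peaks had a q of 0. Intervals are exact 95% intervals for counting error only; since neighbouring regions are not independent, their true uncertainty is wider by an unknown amount. Conditions were not compared, and with 2 replicates the values of both are given in place of a test, so no p-value is printed.

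Polymerase regions, counted at any strength, were concentrated in the middle of the chromosome and were sparse on its left side. The span runs from the first base to the end of the last peak, 13.8 Mb, and was split into a left arm (the first 25%), a centre (the middle 50%) and a right arm (the last 25%). The centre held 163 of the 230 regions (70.9%, interval 64.5 to 76.7), against a background of 63.9% for the regions of II, IV, V and X. The left arm held 18 (7.83%, interval 4.70 to 12.1) and the right arm 49 (21.3%, interval 16.2 to 27.2). Per Mb these counts were 23.7 regions in the centre, 14.2 in the right arm and 5.23 in the left arm. Chromosome V had a higher centre share than III, 75.2% (interval 68.8 to 80.9). On II it was 63.1%, on IV 59.6% and on X 57.6%, so concentration in the centre was not particular to III. The share on III was higher among weak regions. The centre held 74 of 96 regions with −log10 q between 2 and 5 (77.1%) and 33 of 40 between 5 and 10 (82.5%). In the stronger ranges, from 10 upward, its share lay between 52.0% and 64.3%.

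The replicates placed their peaks alike. The centre took 77 of 111 peaks in replicate 1 (69.4%) and 108 of 161 in replicate 2 (67.1%), a mean of 68.2% ± 1.62 (SD, n = 2). The density of regions in the centre was 2.43 times that of both arms together (interval 1.82 to 3.28), and the single replicate lists gave 2.26 (interval 1.49 to 3.50) and 2.04 (interval 1.45 to 2.89). Both lists therefore held the centre above the arms by more than counting error.

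The arms of III differed from each other. The right arm held 2.72 times as many regions as the left arm over the same length (interval 1.56 to 4.97). Replicate 1 placed 25 peaks in the right arm and 9 in the left, a ratio of 2.78 (interval 1.25 to 6.76), and replicate 2 placed 41 and 12, a ratio of 3.42 (interval 1.76 to 7.14). Between the centre and the right arm the difference was smaller. The ratio was 1.66 over regions (interval 1.20 to 2.34), but 1.54 in replicate 1 (interval 0.970 to 2.52) and 1.32 in replicate 2 (interval 0.911 to 1.94), so neither replicate list alone separated them from equal density.

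**Figure D1:**
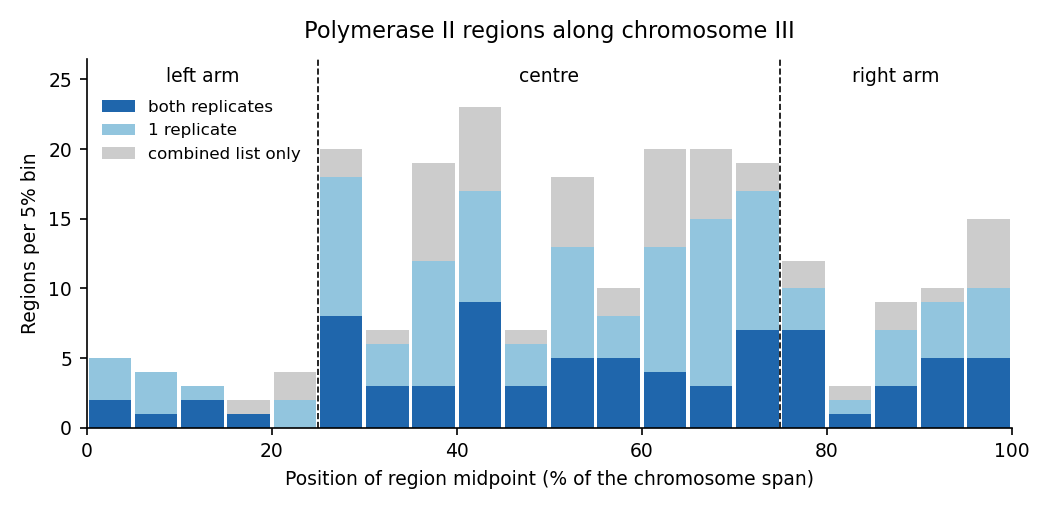
Bars give the number of polymerase regions per bin of 5% of the span of chromosome III, by midpoint (x axis, % of the span; y axis, regions per bin), stacked by whether both replicates, 1 replicate or only the combined list held a peak there; dashed lines mark the arms. Each bin of the left arm holds 5 regions or fewer, while bins of the centre hold between 7 and 23.

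The centre was not evenly filled. By windows of 1 Mb, 38 regions lay between 5 and 6 Mb, 30 between 8 and 9 Mb and 24 between 9 and 10 Mb, while 15 lay between 6 and 7 Mb. The window from 5 to 6 Mb was first in all 3 lists, with 36 combined peaks, 14 in replicate 1 and 24 in replicate 2. Of its 38 regions 7 were strong regions, defined here as regions with a q under 1e-50 in any list. Over all of III 34 of 230 regions were strong (14.8%), and the difference was not tested.

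The emptiest stretch was in the left arm. Only 2 regions lay between 2 and 3 Mb, each replicate held 1 peak there, and 5 regions lay between 11 and 12 Mb in the right arm. The 3 longest gaps of the chromosome were all in the left arm. They ran from 1626987 to 2170527 (544 kb), from 2639548 to 3102517 (463 kb) and from 2173848 to 2636024 (462 kb). The longest gap in the centre was 305 kb. All of the lists rest on uniquely mapped reads, and the part of repeats in the empty stretches was not tested.

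Although few, the left-arm regions included a large share of strong ones. Of its 18 regions 6 were strong (33.3%, interval 13.3 to 59.0), against 21 of 163 in the centre (12.9%, interval 8.16 to 19.0) and 7 of 49 in the right arm (14.3%, interval 5.94 to 27.2). The background for strong regions on II, IV, V and X was 17.7%, and on III it was 34 of 230 (14.8%, interval 10.5 to 20.0). The intervals of the 3 stretches overlap and the left arm holds only 18 regions. The difference between the stretches was not tested. All 6 strong left-arm regions had a peak in both replicates.

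Regions in the arms also had the larger medians. The median width was 1726 bp in the centre, 2670 bp in the left arm and 2598 bp in the right arm, and the median −log10 q was 5.77, 8.91 and 13.8. In replicate 1 the median widths were 1979 bp for the centre, 3238 bp for the left arm and 2633 bp for the right arm. Replicate 2 gave 2542 bp for the centre, 3372 bp for the left arm and 2213 bp for the right arm. The left arm was thus the widest by median in each replicate, on 9 and 12 peaks, whereas the right arm lay above the centre in replicate 1 and below it in replicate 2. For strength, the median −log10 q in replicate 1 was 5.23 for the centre, 21.2 for the left arm and 7.99 for the right arm. In replicate 2 these were 6.82, 20.5 and 10.4. Both replicate lists therefore put the left arm above the right arm by median strength, the reverse of the order over regions.

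Polymerase regions covered 595 kb of III, or 4.32% of its span. Widths ran from 1 bp to 20.4 kb with a median of 2001.5 bp and quartiles of 630 and 4036 bp. The 36 regions of at least 5 kb made up 40.5% of the covered length. At the other end 8 regions were narrower than one 36 bp read, and each of them rested on a single list. Peaks of one list never lay closer than 202 bp on III, and the closest regions were also 202 bp apart, while the smallest overlap that joined peaks of different lists was 27 bp.

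Regions differed in the lists that supported them. All 3 lists held a peak in 76 regions (33.0%, interval 27.0 to 39.5). The combined list was joined by replicate 2 alone in 64 regions and by replicate 1 alone in 19, and it stood alone in 52. Replicate 1 alone held 10 regions, replicate 2 alone 8, and 1 region had a peak in both replicates but none in the combined list. Both replicates thus had a peak in 77 regions (33.5%, interval 27.4 to 40.0), and the background on II, IV, V and X was 36.3%, so III was not set apart by this share.

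Regions in all 3 lists were wide and strong. Their median width was 3873.5 bp and their median −log10 q 36.6, and they made up 51.2% of the covered length. Regions of the combined list and replicate 2 had medians of 2565 bp and 6.65, and those of the combined list and replicate 1 had 1601 bp and 5.46. Where the combined list stood alone the median width was 384.5 bp and the median −log10 q 2.62, with 2.02e-05 as the smallest q. The combined list uses the reads of both replicates, so its agreement with them is not independent. A region's width spans all its joined peaks, and its strength is their smallest q. Regions with more lists therefore tend to be wider and stronger by construction.

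**Figure D2:**
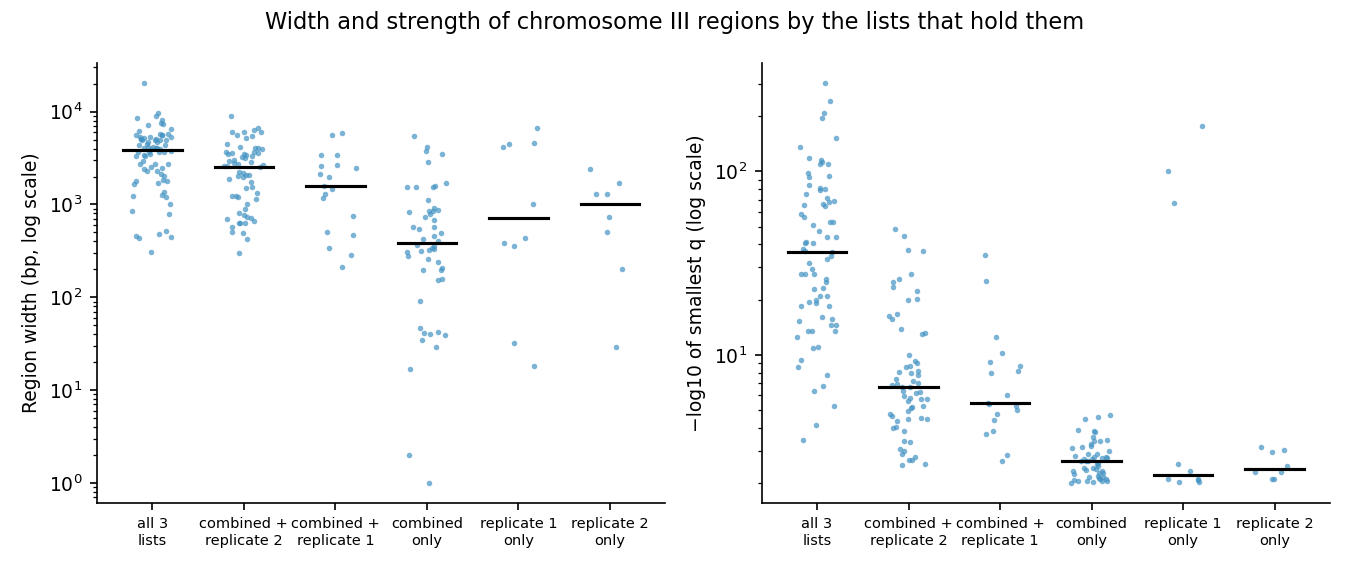
Each point is a region of chromosome III, sorted by the lists that hold it, with its width in bp (left, log scale) and the −log10 of its smallest q (right, log scale); black bars are medians and sideways scatter is only for display. The 76 regions of all 3 lists have a median of 3873.5 bp, while 3 points of the replicate 1 class stand apart at a −log10 q of 67.2 or more; the single region held by both replicates but not by the combined list is not drawn.

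Both replicates held few of the weak regions and most of the strong ones, though the share did not rise at every step. It was 2 of 96 regions with −log10 q between 2 and 5, 6 of 40 between 5 and 10, 16 of 25 between 10 and 20, and 22 of 35 between 20 and 50. Between 50 and 100 it was 19 of 20 (interval 75.1% to 99.9%), and above that 12 of 14 (85.7%, interval 57.2 to 98.2). Median width rose along the same bins, from 604.5 bp to 5294.5 bp. Over the 230 regions width and −log10 q had a Spearman rho of 0.711. This is a description, since a wide peak holds more reads and both values come from the same reads. The shares and widths by bin are descriptions too, as strength is the smallest q of the lists present.

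Replicate 2 held more peaks on III than replicate 1 did. The ratio of their counts was 1.45 on III (interval 1.13 to 1.86), while X had 1.18, IV 1.14, V 1.07 and II 1.03. The interval of III includes the ratios of IV and X, so III is the highest of the 5 but was not separated from them. On III 72 regions had a replicate 2 peak and none in replicate 1, and 29 had the reverse. Of the 72, 52 lay in the centre, 14 in the right arm and 6 in the left arm, a split near that of all 230 regions (163, 49 and 18).

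The regions found in replicate 2 alone of the replicates were of near-typical strength by median, but none was strong. Their median −log10 q was 6.08, against 6.72 over all regions of III. The 29 regions of the reverse kind had a median of 5.27, and 3 of them were strong. Of the 72, 11 had a −log10 q of 20 or more and 0 were strong. The first among them lay close to the right end, at III 13615580 to 13624621, and was 9.04 kb wide. Its q was 5.56e-49 in the combined list and 5.06e-47 in replicate 2. The next was at III 6300242 to 6304367, with a combined q of 6.06e-45 and a replicate 2 q of 4.00e-40. Replicate 1 had no peak at either place.

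The 82 pairs of overlapping replicate peaks were ordered moderately alike. Their −log10 q gave a Spearman rho of 0.662 and a Pearson r of 0.627. For widths rho was 0.806. In 65 of 82 pairs (79.3%) replicate 2 had the smaller q, and the median −log10 q was 19.0 there against 7.71 in replicate 1. The pairs share the control reads and the caller, and replicate 2 was the deeper library. The part of depth in this difference was not tested.

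Where each list had exactly 1 peak, the replicates drew nearly the same borders. In these 66 regions the starts differed by a median of 70.5 bp and the ends by 80 bp. The replicates shared a median of 87.7% of their joint length. The median ratio of replicate 1 to replicate 2 width was 0.944 (quartiles 0.846 and 1.01), and replicate 2 was the wider in 48 of the 66. Of all bases covered by replicate 1 on III, 75.1% were covered by replicate 2, and in the other direction the share was 50.5%.

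**Figure D3:**
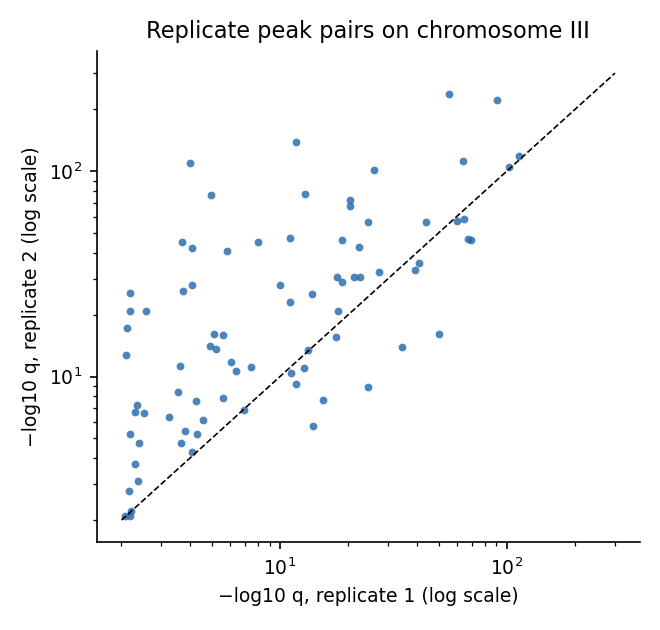
Each point is a pair of overlapping replicate peaks on chromosome III (82 pairs), with −log10 q of replicate 1 on the x axis and of replicate 2 on the y axis, both on log scales; the dashed line marks equal values. In 65 pairs the point lies above the line, where replicate 2 had the smaller q.

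Of the listed regions of III the one with the smallest q lay in the centre, at III 5501150 to 5506863, 5.71 kb wide. Since 0 peaks carry a q of 0 and some places with very small replicate q have no combined peak, the lists may lack peaks stronger than those ranked here; this was not tested. The combined q was 1.81e-304 and those of the replicates 4.52e-56 and 1.12e-237, the widest separation of −log10 q among the replicate pairs. No other region lay within 42.3 kb of it.

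The next strong pair in the centre showed near-equal replicates. The region at III 8864210 to 8868561 had q values of 3.10e-244 combined, 2.12e-114 in replicate 1 and 1.12e-119 in replicate 2. That at III 8651668 to 8656663 had 3.73e-210 combined, 5.98e-103 in replicate 1 and 3.95e-105 in replicate 2. Both were narrower than the first, at 4352 and 4996 bp, and both replicates put them far above the weak bulk of the list.

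The right arm's strongest region showed the opposite case. At III 12611325 to 12617871 the combined q was 9.94e-153 and the replicate 2 q 6.21e-140, but the replicate 1 q was 1.86e-12. In the left arm the region at III 345418 to 351085 had a combined q of 1.86e-136 and replicate values of 2.07e-65 and 7.01e-59, so there replicate 1 was slightly ahead.

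The 10 strongest regions were spread over the chromosome, with 6 in the centre and 2 in each arm. Beside those described they included III 7369417 to 7378999, 9.58 kb wide, where replicate 1 had a q of 7.74e-65 and replicate 2 one of 2.53e-113. The region at III 5874054 to 5877396 had 8.76e-27 in replicate 1 and 1.93e-101 in replicate 2, and that at III 13067702 to 13072457 had 3.48e-68 and 1.78e-47. Of the 10 regions 9 had a peak in both replicates, and in 7 of these 9 replicate 2 had the smaller q. Their widths ran from 3343 to 9583 bp.

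In 4 strong regions the combined list held no peak at all. One lay near the left end, at III 62128 to 67720, with a q of 1.44e-91 in replicate 1 and 7.42e-223 in replicate 2. It is the only region of III that both replicates held and the combined list did not, and it is the strongest region of the left arm. The other 3 were held by replicate 1 alone, at III 5937813 to 5944443 (q 3.79e-177), III 8443235 to 8447409 (q 2.45e-101) and III 9050869 to 9055331 (q 5.67e-68).

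At these 3 places replicate 2 had no peak on the region itself but had peaks nearby. The first was followed after 1.41 kb by a region with a combined peak and a replicate 2 peak (q 1.99e-06). The second was preceded after 5.12 kb by a region of all 3 lists and followed after 2.81 kb by a region of the combined list and replicate 2. The last began 233 bp after a region of the combined list and replicate 2 (replicate 2 q 4.15e-11). Whether binding was lacking there or the peak was left out of the lists was not tested, so a ranking by the combined list misses regions among the strongest of III.

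The 34 strong regions had a median gap of 316 kb between neighbours, with gaps from 1.40 kb to 2.02 Mb. Such gaps depend on how few regions are counted, and separation beyond that was not tested. In clusters, as defined below, lay 11 of these 34, against 83 of all 230 regions (36.1%). The median width of the strong regions was 4609.5 bp. The shortest, at III 12250170 to 12250958, was 789 bp wide, with a combined q of 5.37e-70 and 7.33e-42 in replicate 1 and 1.77e-36 in replicate 2.

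The widest region, at III 7718327 to 7738738, stretched over 20.4 kb. Replicate 1 held it as a single peak of 17145 bp with a q of 8.32e-51. Replicate 2 broke it into peaks of 3240, 4214 and 5396 bp with q values of 5.44e-07, 1.52e-18 and 6.94e-17, so this was also the pair in which replicate 1 led replicate 2 by the most. The combined q was 1.50e-93.

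The other wide regions measured less than 10 kb. They were III 7369417 to 7378999 and III 13615580 to 13624621, both described above, III 1615816 to 1624780 at 8.97 kb and III 3868789 to 3877372 at 8.58 kb. The one at 1.6 Mb was weak in replicate 1 (q 1.03e-05) and strong in replicate 2 (q 5.17e-77). The last was stronger in replicate 1 (q 2.84e-25) than in replicate 2 (q 1.20e-09). Of these 5 widest regions 1 was among the 10 strongest.

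The spacing of regions on III mixed tight groups with long gaps. The median gap between neighbours was 25.5 kb and the mean 57.3 kb, with a coefficient of variation of 1.58. Of 229 gaps, 43 were under 1 kb (18.8%) and 83 at most 10 kb (36.2%), while 18 were over 200 kb. The median gap was 21.5 kb within the centre, 28.8 kb within the right arm and 188 kb within the left arm. On II, IV, V and X the shares of gaps under 1 kb lay between 9.94% and 11.2%. Measured against each chromosome's own mean gap, 31.0% of the gaps of III were under 10% of the mean, and II came next with 24.6%, before V with 23.4%, X with 21.6% and IV with 20.5%.

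**Figure D4:**
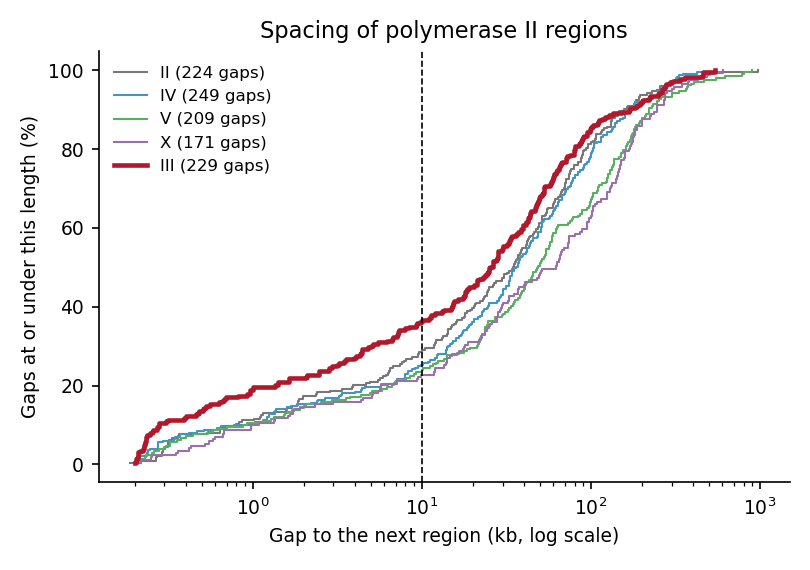
Curves give the share of gaps between neighbouring polymerase regions (y axis, %) at or under a given length (x axis, kb, log scale) for chromosome III (thick) and for II, IV, V and X (thin); the dashed line marks the 10 kb used to define clusters. At 10 kb the curve of III stands at 36.2% and those of the others between 22.8% and 29.0%.

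A larger share of regions lay in clusters on III than on II, IV, V or X, and chromosome I was not compared. A cluster was taken as 3 or more regions with gaps of at most 10 kb between neighbours. III held 24 clusters with 83 regions (36.1%, interval 29.9 to 42.7), against a background of 16.3%, with II next (22.7%, interval 17.4 to 28.7), then X (16.9%), V (13.3%) and IV (12.8%). The interval of III did not overlap those of these 4 chromosomes. The size of this difference depended on the list. Replicate 2 alone gave 31.1% on III (interval 24.0 to 38.8) and 11.3% on II, IV, V and X (interval 8.79 to 14.2). Replicate 1 alone gave 13.5% (interval 7.77 to 21.3) and 7.92% (interval 5.72 to 10.6), with II at 17.9%, so that there the intervals overlapped and III was not the highest. With peaks up to 500 bp apart joined, the share on III fell to 18.6% (interval 13.4 to 24.7), against 10.4% for the others (interval 8.40 to 12.8) and 15.4% on II.

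The clusters of III were short and, like the regions, lay mostly in the centre. Their length ran from 2.29 to 33.1 kb with a median of 13.8 kb. Placed by its strongest region, a cluster lay in the centre in 18 cases, in the right arm in 5 and in the left arm in 1. The centre also held 70.9% of all regions of III. In clusters lay 64 of its 163 regions (39.3%), 16 of 49 in the right arm (32.7%) and 3 of 18 in the left arm (16.7%). Of the 24 clusters 17 held 3 regions. Clusters did not consist of weak peaks alone. At least 1 strong region lay in 8 clusters, and at least 1 region of both replicates in 17. Strong regions were 13.3% of the clustered regions and 15.6% of the others, so clusters were not richer in them. Of the clustered regions 28.9% had both replicates (interval 19.5 to 39.9), against 36.1% of the others (interval 28.3 to 44.4). These intervals overlap, and the difference was not tested.

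The largest cluster, at III 8952492 to 8985632, held 7 regions over 33.1 kb, and none of them had a peak in both replicates. Its strongest region, III 8962704 to 8964855, was held by replicate 1 (q 8.50e-36) and the combined list (q 2.32e-10), the combined q being the weaker. Its widest region, of 5247 bp at III 8980386 to 8985632, was held by replicate 2 (q 1.12e-07) and the combined list instead. The replicates therefore built this cluster from different places.

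The second largest cluster had no peak in replicate 1. At III 3789443 to 3810042, 5 regions covered 72.1% of 20.6 kb, and all had a replicate 2 peak. The strongest, III 3789443 to 3792919, had a q of 8.59e-34 in replicate 2 and 4.27e-38 in the combined list. The widest, III 3795873 to 3802538, had 1.71e-32 and 1.70e-37. Replicate 2 thus held every region of this cluster and replicate 1 held 0 of 5.

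Another 5 clusters held 4 regions each, and the longest 3 are described first. That at III 12595589 to 12617871 contained the strongest region of the right arm, and 3 of its 4 regions had both replicates. The cluster at III 5549165 to 5567271 was led by III 5549165 to 5552580, with q values of 5.00e-21 in replicate 1 and 2.30e-68 in replicate 2. The cluster near the right end, at III 13708443 to 13724753, was led by III 13718183 to 13721845, with 3.91e-25 and 4.28e-57. In both of these replicate 2 had the smaller q. The remaining 2 were weak: III 5077148 to 5093234 had 6.04e-07 as its smallest q and 0 regions with both replicates, and III 8904859 to 8911197 had 4.16e-07 and 1 such region.

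**Figure D5:**
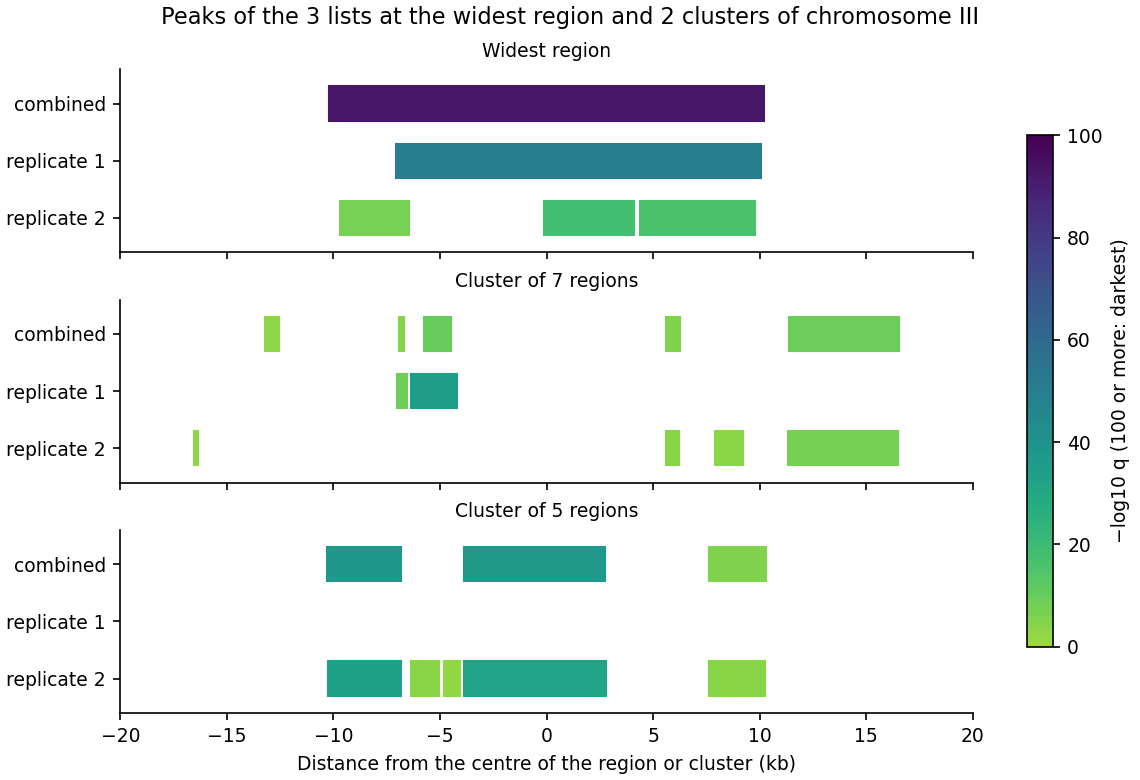
Bars are the peaks of the combined, replicate 1 and replicate 2 lists at the widest region and at the clusters of 7 and of 5 regions on chromosome III, drawn to scale (x axis, kb from the centre of the region or cluster) and shaded by −log10 q, darkest at 100 or more. The widest region is 1 peak in replicate 1 and 3 peaks in replicate 2, and the cluster of 5 regions has no replicate 1 peak.

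Set beside II, IV, V and X, chromosome III was dense in regions. This gives III no rank among all chromosomes. Of the 1922 regions in all, 230 lay on III and 857 on these 4, and chromosome I was not compared. It held 16.7 regions per Mb, while II held 14.8, IV 14.3, V 10.1 and X 9.73. The ratio of III to these 4 together was 1.39 (interval 1.20 to 1.61). It was 1.49 in replicate 2 (interval 1.24 to 1.78) and 1.14 in replicate 1 (interval 0.917 to 1.40), a mean of 1.31 ± 0.251 (SD, n = 2), so replicate 1 alone did not separate III from the others. Against single chromosomes, the ratio to II was 1.13 (interval 0.937 to 1.37) and that to IV 1.17 (interval 0.972 to 1.40), and both intervals include 1. The lists differed here. Replicate 2 gave 1.40 for II (interval 1.10 to 1.78) and 1.17 for IV (interval 0.942 to 1.46), and the combined list 1.23 for both, with the lower end of each interval just above 1. Replicate 1 gave 0.998 for II (interval 0.765 to 1.30) and 0.927 for IV (interval 0.719 to 1.19), on the other side of 1. The ratio to V was 1.66 (interval 1.37 to 2.01) and that to X 1.72 (interval 1.40 to 2.10), and in replicate 1 these were 1.31 (interval 1.01 to 1.71) and 1.40 (interval 1.06 to 1.85).

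By width and strength the regions of III were within the range of II, IV, V and X. Their median width of 2001.5 bp lay between 1731 bp on II and 2629 bp on X, and their median −log10 q of 6.72 between 6.21 on II and 10.5 on X. II also resembled III in having few regions in its left arm, 14 of 225 (6.22%), whereas IV held 65 of 250 there (26.0%). In the centre III had 23.7 regions per Mb, while II had 18.6, IV 17.1, V 15.2 and X 11.2.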

How the data were processed

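Polymerase II ChIP and input DNA were sequenced in 3 and 5 runs of 36 bp reads, per the deposited sample table, whose read counts per run were summed per sample. The deposited description names ELAND for alignment, and the peaks are by PeakSeq, per the file headers and source column. Their versions: not given in the sources used here. The authors' deposited value of each peak is a q-value, up to 0.00999. Per the file headers, positions refer to WormBase WS220, and comment lines mark 1 feature of III in each list as changed when carried over from an earlier build.

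Peaks were joined into regions with Python 3.11.15, NumPy 2.4.6 and pandas 2.3.3, and exact (Clopper-Pearson) intervals came from SciPy 1.17.1. Density ratios have exact intervals conditional on the total count. A region's strength is its smallest q in any list. The joining, the clusters, the pairs and the intervals were tested on simulated data. Regions named by position were the 10 strongest, the 5 widest, the 5 clusters with the most regions (ties by length), the strong ones without a combined peak, and the longest gaps. The strongest of each stretch and list class were named too, except for the classes of the combined list alone and of replicate 2 alone. The last 2 clusters of 4 regions, the shortest strong region, the region at 6.3 Mb and the neighbours of strong regions were picked once their values were known. The members, stretches and measures were chosen with earlier results of these data known. No label states separate cultures for the replicates, so their spread may be technical. No genome or annotation of WS220 was used here, so no sequence is shown.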

Additional observations from a re-analysis of the deposited data

How the results depend on the processing

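The 7 measures of III were recomputed under 48 alternatives, and 30 values stayed close: within 1 SD of the replicate lists, within 1.5 times for the number of regions, within the exact interval for support by both replicates, or equal to 2 decimals for the rank correlation. The SD comes from the same single-replicate lists, so for these measures closeness is a loose mark. The density ratio of III to II, IV, V and X ran from 1.14 without replicate 2, where its interval (0.917 to 1.40) included 1, to 1.49 without replicate 1. The number of regions was 134 with only peaks of q up to 1e-05, and 111 to 161 with a single replicate list. The share in the centre was 66.4% at q up to 1e-05, 69.2% with the replicate lists only, 66.9% of covered base pairs, 67.1% to 69.4% with a single replicate list, and 47.8% with the centre narrowed to the middle 1 of 3 equal stretches, which is a shorter stretch by construction. Support by both replicates was 43.2% without the combined list, which removes the regions that only it held. The median width was 2468 bp with peaks within 500 bp joined, 3453.5 bp at q up to 1e-05, 2385 bp with the replicate lists only and 2166 to 2566 bp with a single replicate list. The share in clusters depended on the 10 kb limit, with 24.8% at 5 kb and 47.4% at 20 kb. It was 18.6% with peaks within 500 bp joined, 21.6% at q up to 1e-05 and 13.5% to 31.1% with a single replicate list, the lowest without replicate 2. The rank correlation was 0.596 at q up to 1e-05, 0.649 without peaks under 36 bp and 0.688 in pairs matched one to one. The cause of the other shifts was not tested. No paired analysis was possible because peaks were listed for the ChIP samples alone, so the replicate numbers join no groups. Of the weak regions few were repeated: 96 of 230 had a −log10 q between 2 and 5, and 2 of them had both replicates. The part of depth was not tested.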

Other observations

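The 52 regions of III that only the combined list held were spread like the rest, with 38 in the centre, 11 in the right arm and 3 in the left arm. Their share of the regions was 22.6% on III (exact 95% interval 17.4 to 28.6), while II had 24.9%, V 16.7%, IV 14.4% and X 11.6%. The narrowest entries were among them: the peak at III 8892959 was 1 bp wide with a q of 0.000392, and that at III 3102517 to 3102518 was 2 bp wide with a q of 0.00588. Both are narrower than a 36 bp read.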
